A study of Rattus norvegicus with 18 samples.

Results

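The myosin heavy chain rows of a gene count table were described in gastrocnemius, a calf muscle, of 18 male Brown Norway rats. The rows were chosen by position and identifier, without use of their counts. On chromosome 10 these were the plus-strand rows that start between 53.5 and 54.0 megabases and are over 5000 bases long, and on chromosome 15 they were the rows of Myh6 and Myh7, taken by identifier. The rule found 4 of the 32883 rows of the table, 2 on each chromosome. All 4 passed the filter on low counts, and 14646 rows were tested in all.

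The groups were 6 young rats of 6 months fed ad libitum (AL), 6 aged rats of 28 months fed AL, and 6 aged rats of 28 months under caloric restriction (CR). The CR rats received 55% of the intake of AL rats from 2 months of age, and all rats were fed AL before that. Of the CR libraries, 3 could be placed in their group but not with 1 rat, and these are called by their library numbers 8826, 8827 and 8828. The sample numbers in the table's column names give 15 for both rat 15 and library 8826 and no 18, whereas the labels list 6 CR rats with 6 library numbers, so n = 6 rests on the labels and library numbers. The library numbers of the 3 groups formed separate blocks, so that handling in blocks and group cannot be told apart. The muscle had been frozen for long periods, and total counts ran from 17335401 to 27432767 per library, with a median of 21569117. Over all rows tested, 2 libraries stood apart from the rest, with a median Spearman's rho with the other libraries of 0.912 for aged AL rat 8 and 0.947 for CR library 8828, against 0.966 to 0.979 for the other 16. Without both, 0 of 4 members passed in each comparison, where 4.83% (aged AL against young), 3.11% (aged CR against young) and 3.26% (aged CR against aged AL) of all rows did, and the 12 log2 fold changes kept their signs.

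Myosin heavy chain is the motor protein of the thick filament. Each muscle fibre makes 1 or a few of its isoforms, which set how fast the fibre shortens and how much ATP it uses. Myh7 encodes the slow isoform of type I fibres and of the heart, and Myh6 encodes the alpha isoform, which is found mainly in the heart and lies beside Myh7. Myh2, Myh1 and Myh4 encode the fast isoforms IIa, IIx and IIb, and lie side by side with Myh3 and Myh8, the embryonic and perinatal isoforms, and with Myh13, an isoform of the eye and larynx muscles. Rat gastrocnemius is known as a mainly fast muscle, with more slow fibres in its deep part. The comparison of the groups asks whether the make-up of these isoforms at the RNA level differed with age and with CR.

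The label of fast and slow fibre genes could be applied only in part. The RefSeq annotation of a later assembly, GRCr8, lists 6 genes in the chromosome 10 array, but only 2 rows of the table met the rule there. Neither row could therefore be given the name of a single myosin gene, and both are called by their identifiers. No value is given for Myh2, Myh1, Myh4, Myh3, Myh8 or Myh13 alone, and the RNAs of the fast isoforms cannot be separated from each other here.

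Sequences at the starts of 3 genes of the array are shown first. RefSeq gives 300 bases for each start, of which 250 lie before it and 50 after it. The promoters of Myh2, Myh1 and Myh4 are printed 5′ to 3′ because they stand for the IIa, IIx and IIb isoforms, and the capitals mark the longest run of bases found in all of them, 20 bases long. They lie in GRCr8 on the plus strand at chr10:52355489-52355788, chr10:52384662-52384961 and chr10:52421898-52422197.
Myh2: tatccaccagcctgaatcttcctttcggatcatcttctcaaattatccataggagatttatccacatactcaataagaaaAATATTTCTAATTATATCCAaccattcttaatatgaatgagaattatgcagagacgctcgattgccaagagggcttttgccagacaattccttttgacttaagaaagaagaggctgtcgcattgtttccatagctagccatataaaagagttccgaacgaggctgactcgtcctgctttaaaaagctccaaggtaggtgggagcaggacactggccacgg
Myh1: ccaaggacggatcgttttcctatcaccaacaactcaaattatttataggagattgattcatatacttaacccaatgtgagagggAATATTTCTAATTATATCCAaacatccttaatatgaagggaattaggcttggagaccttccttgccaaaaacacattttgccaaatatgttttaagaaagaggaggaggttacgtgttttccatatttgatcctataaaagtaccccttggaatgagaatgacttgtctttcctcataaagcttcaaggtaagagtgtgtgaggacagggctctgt
Myh4: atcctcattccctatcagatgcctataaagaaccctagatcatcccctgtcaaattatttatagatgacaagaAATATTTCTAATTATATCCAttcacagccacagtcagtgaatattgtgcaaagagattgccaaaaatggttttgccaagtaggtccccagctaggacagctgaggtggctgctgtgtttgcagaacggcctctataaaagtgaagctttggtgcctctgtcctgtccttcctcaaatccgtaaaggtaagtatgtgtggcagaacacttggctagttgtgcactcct
The run begins 170 bases before the start of Myh2, 166 before that of Myh1 and 177 before that of Myh4. It was found on either strand in 5 of the 33469 promoter entries, of which the other 2 both belong to LOC102555216, so that the entries of Myh3, Myh8 and Myh13 do not hold it. The letters TATAAA, searched on both strands with overlapping matches counted, occurred 1 time for Myh2, 2 times for Myh1 and 3 times for Myh4, and 14.2% of all entries hold them. The MEF2 motif occurred 2 times each for Myh1 and Myh4 and 0 times for Myh2, where 3.29% of entries hold it. The pattern searched for MEF2 reads the same on both strands, so each site was counted on both. The 2 matches in Myh1, and likewise those in Myh4, are thus 1 site. In the rest of the array, TATAAA occurred 1 time for Myh3 and 0 times for Myh8 and Myh13, and the MEF2 motif 0 times for each. Such a match describes letters and not a site in use.

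The entry for Myh7, the slow isoform, is printed for contrast, with matches to CANNTG in capitals. It lies in GRCr8 on the minus strand at chr15:32438145-32438444. Whether its listed start is where the full RNA begins was not tested. The stretch may thus differ in kind from those of Myh2, Myh1 and Myh4.
Myh7: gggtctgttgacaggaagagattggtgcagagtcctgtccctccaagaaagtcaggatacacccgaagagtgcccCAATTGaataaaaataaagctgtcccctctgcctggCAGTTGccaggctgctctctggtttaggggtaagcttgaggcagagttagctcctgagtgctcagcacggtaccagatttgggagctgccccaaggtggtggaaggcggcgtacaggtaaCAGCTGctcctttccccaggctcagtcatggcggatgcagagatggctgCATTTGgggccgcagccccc
It holds CANNTG 4 times and TATAAA 0 times. CANNTG reads the same on both strands, and 72.1% of all entries hold it. In Myh1 and Myh2 it occurred 0 times, and in Myh4 3 times. In the rest of the array it occurred 1 time in Myh3, 0 times in Myh8 and 3 times in Myh13. In Myh6, the neighbour of Myh7, it occurred 1 time.

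Myh7 and Myh6 also carry a microRNA each within their span in GRCr8, on the same strand. The mature strands of rno-miR-208b, within Myh7, and rno-miR-208a, within Myh6, are printed because they share their seeds, bases 2 to 8, in capitals.
rno-miR-208b-3p: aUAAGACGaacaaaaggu
rno-miR-208a-3p: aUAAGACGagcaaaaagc
rno-miR-208b-5p: aAGCUUUUugcucgcguuau
rno-miR-208a-5p: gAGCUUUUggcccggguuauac
The 3p strands share the seed UAAGACG and the 5p strands share AGCUUUU.

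The exon structure of the 4 rows, as the table gives it for Rnor_6.0, was read next. Myosin heavy chain genes share much of their exon layout, and the 3 longest exon block lengths found in all 4 members were 390, 309 and 256 bases. Blocks of 256 and 390 bases occurred together in 9 of 32883 rows, of which 5 were the 4 members, by this choice, and ENSRNOG00000050042. ENSRNOG00000046276 lies at chr10:53621375-53645194 on the plus strand, with 42 exon blocks and a summed length of 6035 bases. Myh7 (ENSRNOG00000016983) lies at chr15:33634422-33656089 and Myh6 (ENSRNOG00000025757) at chr15:33605654-33629699, both on the minus strand, with 38 exon blocks each and lengths of 5923 and 6028 bases. Each of these 3 rows held 1 block of 256 and 1 of 390 bases, so each has the layout of a single gene.

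ENSRNOG00000049695, at chr10:53713938-53848347 on the plus strand, had another layout. It covered 134410 bases with 121 exon blocks and a summed length of 18143 bases, and held 3 blocks of 256 bases and 2 of 390 bases. Its longest gaps between blocks measured 44407 and 14051 bases and divide it into 3 runs. The first run held 78 blocks with 11782 exon bases and 2 blocks of 256 bases. The second held 40 blocks with 6013 exon bases and 1 such block, about the exon length of Myh7. The last run held 3 blocks with 348 exon bases. Block lengths that also occur in Myh7 made up 95 of its 121 blocks, against 32 of 42 in ENSRNOG00000046276 and 34 of 38 in Myh6. The row thus has the exon length of several myosin genes, and its counts are called those of the long chromosome 10 row.

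**Figure D1:**
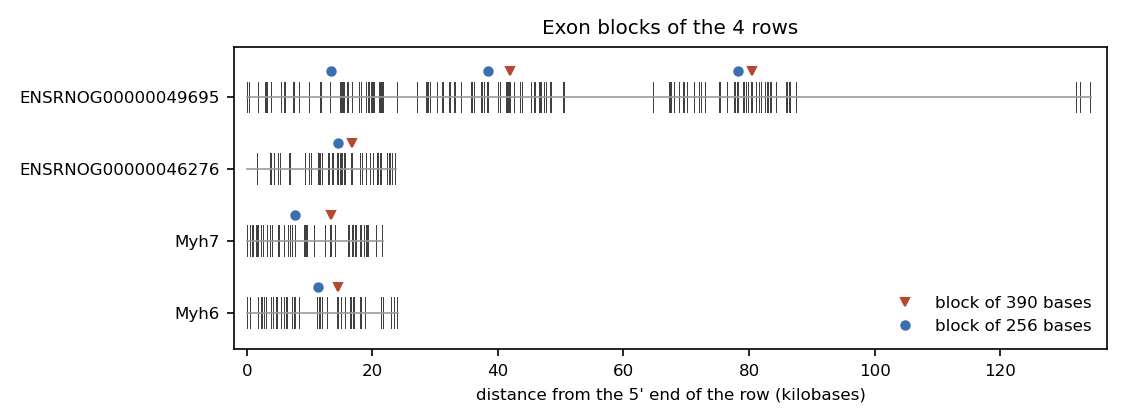
Exon blocks of the 4 rows by distance from the 5′ end of each row in kilobases, with each block as a dark bar, blocks of 256 bases marked by circles and of 390 bases by triangles. The long chromosome 10 row holds 3 circles and 2 triangles over 134410 bases, and each of the other rows holds 1 of each.

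The row just outside the length limit was ENSRNOG00000050042, with 4437 bases and 34 exon blocks. It held 39 to 113 counts per library, where ENSRNOG00000046276, the shortest chromosome 10 row inside the limit, held 683 to 4378. It overlaps the span of the long row but shares 0 exon bases with it. Antisense rows were a further limit on the chromosome 15 genes. ENSRNOG00000048644 shares 426 exon bases with Myh6 and ENSRNOG00000046229 shares 418 with Myh7, and they held at most 2 and 9 counts. The counting command gave no strand setting, so that sense and antisense reads over these exons cannot be told apart. The members belong to 1 gene family, and the counting command set no option for reads with several matches, so that counts of a low member beside a high one are uncertain. How alike their transcripts are was not measured here.

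The long chromosome 10 row was the most abundant of all rows in 16 of the 18 libraries and the second in the other 2. It took from 2.72% to 8.76% of all counts, and the 4 members together took from 3.4% to 8.98%. Levels below are CPM, counts scaled to a common library size, with TMM factors that adjust each library for its make-up. In young rats the long row ranged from 41400 to 104700 CPM, with a median of 59500 and a mean of 66200 ± 24000 (SD, n = 6). In aged AL rats it ranged from 22530 to 80560 CPM, with a median of 58600 and a mean of 53300 ± 24900 (SD, n = 6). In aged CR rats it ranged from 50590 to 75970 CPM, with a median of 65300 and a mean of 65000 ± 10000 (SD, n = 6). The 3 groups overlapped. The lowest levels of the study were those of rats 8 and 7, both aged AL, at 22530 and 23990 CPM, and the highest was that of young rat 3.

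Myh7 RNA, of the slow isoform, varied most between rats. It held between 21571 and 380530 counts per library, from rank 104 in rat 11 to rank 3 in rat 7, both aged AL. In young rats it ranged from 2371 to 10490 CPM, with a median of 2890 and a mean of 4040 ± 3170 (SD, n = 6). In aged AL rats it ranged from 897.0 to 19360 CPM, with a median of 2010 and a mean of 4750 ± 7210 (SD, n = 6). In aged CR rats it ranged from 978.4 to 6246 CPM, with a median of 2820 and a mean of 3150 ± 2050 (SD, n = 6). The groups overlapped in part, with 3 aged AL and 3 CR libraries below the lowest young rat, and 1 rat in each AL group stood far above the rest. Rat 4 was 3.4 times the next young rat, and rat 7 was 6.24 times the next aged AL rat. Without these, the 5 other young rats averaged 2760 ± 292 CPM and the 5 other aged AL rats 1830 ± 991 CPM (SD). These rats were left out for their values, so the SDs without them are a description only. The labels name the gastrocnemius and do not say which part of it each library came from.

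ENSRNOG00000046276, the first chromosome 10 row, was low beside the long row. It ranged from 123.3 to 247.6 CPM in young rats, with a median of 180.0 and a mean of 181 ± 42.0 (SD, n = 6). In aged AL rats it ranged from 68.76 to 152.7 CPM, with a median of 123 and a mean of 117 ± 31.6 (SD, n = 6). In aged CR rats it ranged from 33.67 to 198.4 CPM, with a median of 89.1 and a mean of 97.6 ± 63.8 (SD, n = 6). The medians of the aged groups were lower than that of the young group, and both groups overlapped it. The lowest levels were those of library 8826 and rat 14, both CR, at 33.67 and 40.93 CPM. These 2 libraries also held high shares of counts on mitochondrial genes, 10.5% and 12.4%, and library 8827 held 10.4%, where the other 15 libraries held 2.49% to 6.75%. Library 8827 had 115.6 CPM of this row. The values without these 3 libraries are given with the comparisons.

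Myh6, the alpha isoform, was near the lower limit of what was tested, with 20 to 300 counts per library. It ranged from 1.977 to 4.935 CPM in young rats, with a median of 2.24 and a mean of 2.78 ± 1.15 (SD, n = 6). In aged AL rats it ranged from 1.012 to 15.26 CPM, with a median of 2.3 and a mean of 4.25 ± 5.43 (SD, n = 6). In aged CR rats it ranged from 0.9873 to 3.562 CPM, with a median of 3.16 and a mean of 2.78 ± 1.0 (SD, n = 6). The groups overlapped, and the highest young and aged AL values were again those of rats 4 and 7. The Myh6 counts were 0.047% to 0.307% of the Myh7 counts of the same library, with a median of 0.0789%, and in rat 7 they were 0.0788%. How many of these reads come from Myh7 transcripts was not tested.

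**Figure D2:**
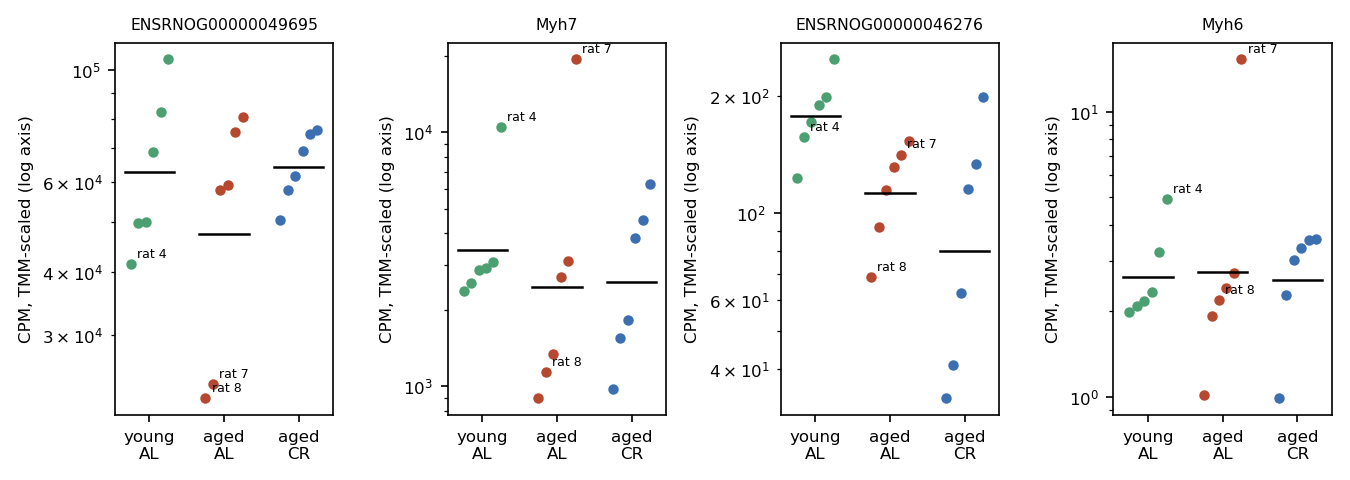
TMM-scaled CPM of the 4 rows on log axes, with 1 point per library and a line at the geometric mean of each group of 6. Rat 7 stands at 19360 CPM for Myh7 and 15.26 CPM for Myh6, rat 4 is the highest young rat for both, and the groups overlap for each row.

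Rows of different length were compared per kilobase of exon. By this measure the long row exceeded Myh7 in 17 of 18 libraries, with a median ratio of 7.1 and a highest ratio of 21.1. The exception was rat 7, where the ratio was 0.405 and Myh7 had the higher level per kilobase, and rat 4 followed with 1.29. In counts not divided by length, the long row exceeded Myh7 in 18 of 18 libraries, with the lowest ratio, 1.24, in rat 7. Myh7 exceeded ENSRNOG00000046276 in 18 of 18 libraries, by 5.99 to 140 times, with a median of 23.8. ENSRNOG00000046276 exceeded Myh6 in 18 of 18 libraries, by 9.25 to 125 times, with a median of 48.3. The order of the levels per kilobase was therefore the same in 17 libraries, although the distance between neighbours varied widely. Since the long row has the exon length of several genes, its level per kilobase is an average over them.

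As a share of the summed counts per kilobase of the 4 rows, Myh7 made up 16.6 ± 13.4% in young, 19.4 ± 25.5% in aged AL and 12.9 ± 8.66% in aged CR rats (SD, n = 6 each). The long row made up 82.7 ± 13.4%, 80.0 ± 25.5% and 86.7 ± 8.92% (SD, n = 6 each). The group means of these rows differed by less than the larger SD of the groups compared. The higher mean share of Myh7 in aged AL rats rested on rat 7, since it was 9.17 ± 4.34% without rat 7, and that of young rats was 11.3 ± 3.23% without rat 4 (SD over 5 rats). These shares depend on the division by length, since the long row was divided by the 18143 bases of several genes. As shares of the counts themselves, Myh7 made up 6.71 ± 6.68% in young, 10.1 ± 16.9% in aged AL and 4.82 ± 3.58% in aged CR rats, and the long row 93.0 ± 6.7%, 89.6 ± 17% and 95 ± 3.69% (SD, n = 6 each). Per kilobase, the Myh7 share ran from 4.5% in rat 11 to 70.79% in rat 7, with 43.42% in rat 4 and 27.21% in rat 13, and its median over the 18 libraries was 12.3%. ENSRNOG00000046276 made up 0.704 ± 0.162%, 0.559 ± 0.183% and 0.399 ± 0.274% per kilobase (SD, n = 6 each). As a share of counts it made up 0.267 ± 0.0625%, 0.224 ± 0.0827% and 0.152 ± 0.115% (SD, n = 6 each). The distance of the young and CR means was larger than either SD per kilobase and about equal to the CR SD by counts, and no test was made of a share. Per kilobase, the 3 CR libraries of high mitochondrial share held 0.1354% to 0.3909%, and the other 3 held 0.2908% to 0.8481%. In bulk tissue, fewer fibres of a type and less RNA per fibre cannot be told apart.

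**Figure D3:**
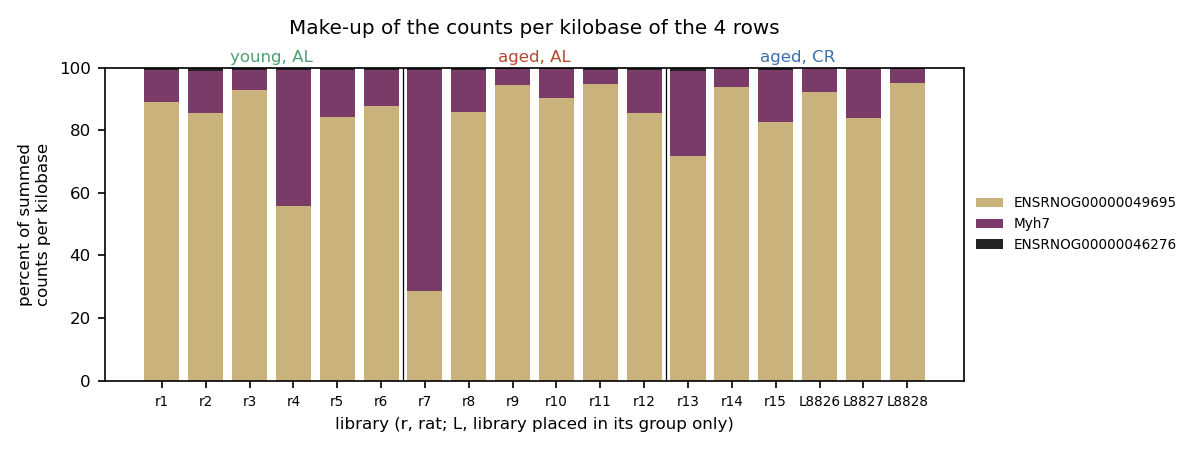
Stacked bars of the percent of summed counts per kilobase in each of the 18 libraries for the long chromosome 10 row, Myh7 and ENSRNOG00000046276, while Myh6 is too low to be seen. Myh7 takes 70.79% in rat 7 and 43.42% in rat 4, and its median over all libraries is 12.3%.

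Between aged and young AL rats, the comparison for age, 0 of the 4 members passed the test, edgeR's quasi-likelihood test with calls made where the adjusted p was 0.05 or less and the fold change 1.5 or more. Of all rows tested, 3.39% passed. With DESeq2 on all 18 libraries, 0 of the 3 members that it gave an adjusted p passed, beside 6.0% of all rows. That fit gave Myh6 no adjusted p in any of the 3 comparisons. At an unadjusted p under 0.05 in edgeR it was 0 of 4, where 22.3% of all rows had one. The groups did not overlap for 0 of 4 members and for 2.4% of all rows. The log2 fold change of Myh7 was 0.23 ± 0.69 (SE), with a 95% interval from -1.20 to 1.67 and an adjusted p of 0.879. That interval takes in more than a doubling in either direction. For Myh6 the log2 fold change was 0.61 ± 0.52 (SE, adjusted p = 0.524). For both genes the direction rested on rat 7. Without it the log2 fold change of Myh7 was -1.14, with an adjusted p of 0.198, and that of Myh6 was -0.44. The long row had a log2 fold change of -0.31 ± 0.33 (SE, adjusted p = 0.612), and ENSRNOG00000046276 one of -0.63 ± 0.34 (SE), with a 95% interval from -1.35 to 0.09 and an adjusted p of 0.291. The median log2 fold change was -0.04 over the members and 0.01 over all rows.

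Between aged CR and young AL rats, which differ in both age and diet, 0 of 4 members passed in edgeR, against 1.98% of all rows, and 0 of 3 in DESeq2, against 4.13%. At an unadjusted p under 0.05 it was 1 of 4, beside 19.3% of all rows, and 0 of 4 did not overlap, beside 3.26%. The 1 member was ENSRNOG00000046276, with a log2 fold change of -0.89 ± 0.34 (SE), a 95% interval from -1.61 to -0.17, an unadjusted p of 0.0183 and an adjusted p of 0.168. Without rat 14, library 8826 and library 8827, the libraries with the high mitochondrial shares, the log2 fold change was -0.45 with an adjusted p of 0.526. In that setting 0 of 4 members and 46 of 15440 rows passed (0.298%), where 290 of 14646 rows did with all libraries. Between aged and young AL rats 2.5% of rows and 0 of 4 members passed in it. Leaving these out was chosen after the values had been seen. Myh7 had a log2 fold change of -0.36 ± 0.69 (SE, adjusted p = 0.82), which became 0.19 without rat 4. For the long row it was -0.03 ± 0.33 (SE, adjusted p = 0.977) and for Myh6 0.00 ± 0.52 (SE, adjusted p = 0.999), where the sign changed with the scaling and other settings. The members' median was -0.19 and that of all rows 0.00.

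Between the aged groups, the comparison for CR at 28 months, 0 of 4 members passed in edgeR, against 1.38% of all rows, and 0 of 3 in DESeq2, against 2.89%. At an unadjusted p under 0.05 it was 0 of 4, beside 15.3% of all rows, and 0 of 4 did not overlap, beside 2.06%. Myh7 had a log2 fold change of -0.59 ± 0.69 (SE), with a 95% interval from -2.03 to 0.85 and an adjusted p of 0.735. Without rat 7 it was 0.78. Myh6 had a log2 fold change of -0.61 ± 0.52 (SE, adjusted p = 0.631), which became 0.44 without rat 7. For the long row it was 0.29 ± 0.33 (SE, adjusted p = 0.732). For ENSRNOG00000046276 it was -0.26 ± 0.34 (SE, adjusted p = 0.772), and 0.16 without the 3 libraries of high mitochondrial share, a setting in which 0 of 4 members and 4 of 15440 rows passed (0.0259%), where 202 of 14646 rows did with all libraries. The members' median was -0.43 and that of all rows -0.02. Each of the 3 groups enters 2 of the comparisons, so that these are not independent of each other.

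**Figure D4:**
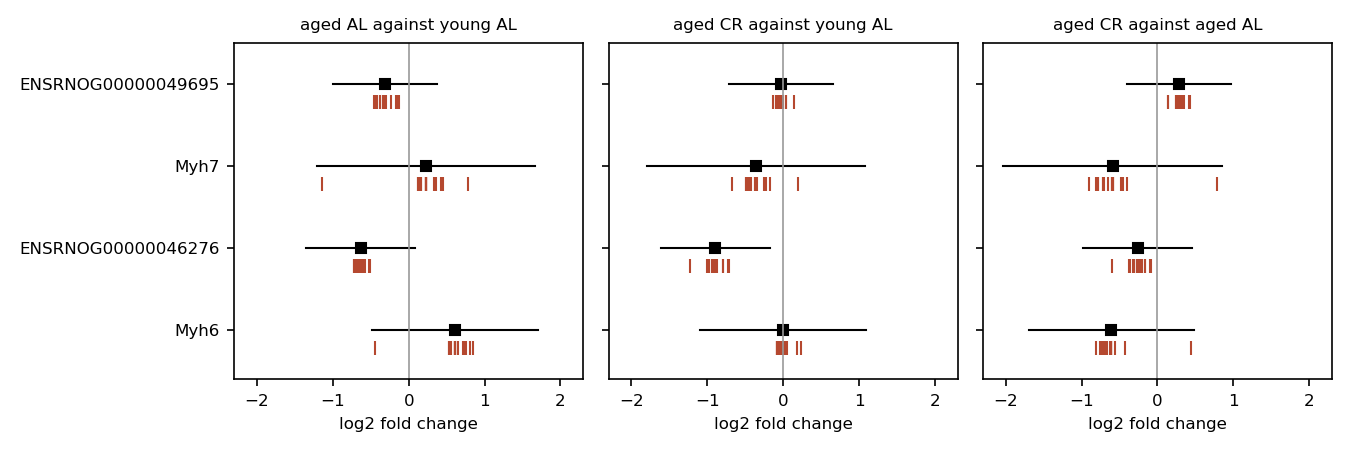
Log2 fold changes of the 4 rows in the 3 comparisons, with black squares for the edgeR estimate, lines for its 95% interval and red ticks for the estimate with each library left out in turn. The interval holds 0 in all but 1 of the 12 cases, ENSRNOG00000046276 in aged CR against young rats, whose adjusted p was 0.168, and ticks fall on both sides of 0 for Myh7 and Myh6 in each comparison and for the long row in aged CR against young.

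The members varied widely between rats of the same group. The standard error of Myh7 exceeded that of 96.5% of all rows in the comparison for age, and that of Myh6 exceeded 92.4%, where the median standard error of all rows was 0.19. The SD of log2 CPM within groups was 1.203 for Myh7, and 47 of the 48 rows of like level, within 1 log2 unit, had a smaller one, with a median of 0.458. It fell to 0.781 without rats 4 and 7, still above that of 97.9% of like rows. For ENSRNOG00000046276 the SD was 0.667, above that of 1890 of 1936 like rows, whose median was 0.25, and it was 0.707 without rats 4 and 7. For Myh6 it was 0.884, which fell to 0.534 without these rats, and the share of like rows with a smaller SD fell from 90.9% to 65.3%. The long row had an SD of 0.571, with only 1 other row of like level.

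The members were then compared between rats of the same group, as log2 CPM from which the group mean had been removed, in 6 pairs over 18 libraries. Myh6 and Myh7 varied together, with Pearson's r = 0.818 (permutation p = 0.00219, adjusted p = 0.0131) and Spearman's rho = 0.787 (permutation p = 0.00021, adjusted p = 0.00126). Without rats 7 and 14, the libraries farthest from the median of Myh6, r was 0.617. Without rats 4 and 7 it was 0.491 with an adjusted p of 0.283, so that the relation rests in part on these rats. The pair are neighbours of 1 gene family, and the part of shared reads in this relation was not tested.

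The relations of the long row to Myh7 and to Myh6 had negative coefficients, and neither passed. For the long row and Myh7, r was -0.413 (permutation p = 0.189, adjusted p = 0.227) and rho was -0.276 (permutation p = 0.314, adjusted p = 0.377), and without rats 8 and 7 r was -0.364. For the long row and Myh6, r was -0.6 (permutation p = 0.0171, adjusted p = 0.0512) and rho was -0.488 (permutation p = 0.0562, adjusted p = 0.129), and without rats 8 and 7 r was -0.508. These values moved with the libraries left out. Rat 8 had the lowest level of the long row together with a low level of Myh7. Without rat 8 and library 8828 r became -0.731 for Myh7 (adjusted p = 0.0194) and -0.778 for Myh6 (adjusted p = 0.00933). Without rats 4 and 7 r was 0.081 for Myh7 (adjusted p = 0.825) and -0.298 for Myh6 (adjusted p = 0.38).

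ENSRNOG00000046276 had no relation to the long row that the test could show, with r = 0.045 (permutation p = 0.814, adjusted p = 0.814) and rho = 0.071 (permutation p = 0.743, adjusted p = 0.743), and r = 0.215 without library 8826 and rat 14. With Myh7 it gave r = 0.442 (permutation p = 0.0631, adjusted p = 0.119) and rho = 0.484 (permutation p = 0.0646, adjusted p = 0.129), and r = 0.422 without the same libraries. With Myh6 it gave r = 0.396 (permutation p = 0.0792, adjusted p = 0.119) and rho = 0.414 (permutation p = 0.0865, adjusted p = 0.13), and r = 0.227 without them. Without rats 4 and 7, r was 0.627 with Myh7 and 0.558 with Myh6, each with an adjusted p of 0.192.

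**Figure D5:**
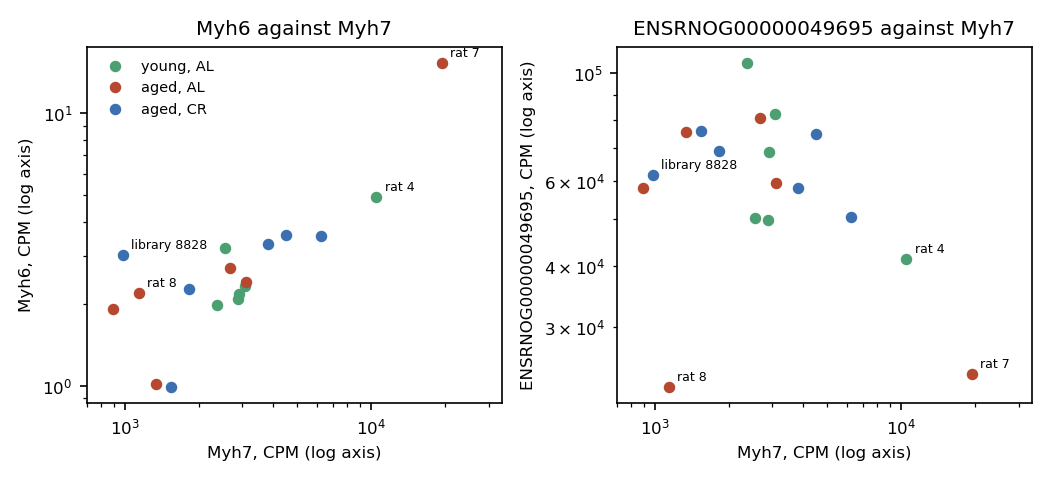
TMM-scaled CPM of Myh6 (left) and of the long chromosome 10 row (right) against Myh7, on log axes, with 1 point per library in the colour of its group. Rats 4 and 7 lie at the upper right for Myh6 and at the lower right for the long row, and rat 8 is low on both axes of the right panel.

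The 2 rows whose pattern over the 18 libraries was most like that of Myh7 were taken from 14645 rows by Pearson's correlation of log2 CPM, as a description with no test. ENSRNOG00000017441, at chr2:189423559-189451029, had r = 0.974 and ranged from 216 to 4100 CPM. ENSRNOG00000018943, at chr16:7292096-7295465, had r = 0.972 and ranged from 162 to 3570 CPM. Both were highest in rat 7 and second in rat 4. Without rats 4 and 7 both had r = 0.941 and stayed first and second. In all, 22 rows had r of at least 0.9 with Myh7, and 7 without these rats. Over the whole table, 1043 of 14646 rows (7.12%) were highest in rat 7, and 218 (1.49%) were highest in rat 7 and second in rat 4. Rows at least 2 times higher in rat 7 than in every other library numbered 52. The points of these correlations share their libraries, depth and scaling.

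For the long row, the nearest patterns were ENSRNOG00000024101, at chr19:22033228-22281778, with r = 0.976, and ENSRNOG00000000920, at chr12:30450316-30464352, with r = 0.969. Both were highest in rats 3 and 9, and without rats 4 and 7 r was 0.964, still the highest, and 0.953, then at rank 5. Rows with r of at least 0.9 numbered 54, and 42 without these rats. No symbol could be paired with any of these identifiers.

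A further row bears on rats 4 and 7. ENSRNOG00000041381 is 112 bases long and lies at chr15:33639510-33639621 on the minus strand, within the span of Myh7 but outside its exons. The RefSeq hairpin of Mir208b, whose mature strands are printed above, is also 112 bases long and lies within Myh7 in GRCr8, but no table pairs the row with that name. The row held 64 counts in rat 7 and 22 in rat 4, then 14 in rat 12, and 0 to 9 in the other 15 libraries. The 2 rats with the highest Myh7 thus also had the highest counts here, as a description of 18 libraries. Reads from unspliced Myh7 RNA and from a separate small RNA cannot be told apart in this row.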

How the data were processed

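Gastrocnemius RNA of 18 rats was sequenced after ribosomal RNA depletion, from strand-specific libraries read in pairs. The authors trimmed reads with cutadapt 1.2.1 and Sickle, aligned them with STAR 2.3.0e to Rnor_6.0 (annotation release 96) and counted them per gene with featureCounts 1.6.4, and the deposited values are these raw counts. Per the file header no strand option was set, so antisense reads are counted too, and no option for reads with several matches was set. Tool versions other than that of featureCounts are from the submitters' processing notes. Groups were taken from the labels, and 0 columns were left out.

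In R 4.3.3 with edgeR 4.0.16, rows were kept by filterByExpr (14646), scaled by TMM and fitted over all 18 libraries, and the 3 comparisons were tested with the two-sided quasi-likelihood test with Benjamini-Hochberg adjustment. CPM values for correlations were on the log2 scale with a prior count of 2. Correlations used 100000 permutations within groups, two-sided. Alternatives were DESeq2 1.42.0, fits of only the groups compared, other scalings and low count filters, robust shrinkage and leaving out libraries. Python 3.11.15 was used for descriptions. In simulated counts of the aged against young AL comparison over 15034 genes, 100% of 100 genes changed 4-fold and 93% of 100 changed 2-fold were recovered, and 3.5% of calls were unchanged genes. The same genes were changed by the square root of these folds in CR rats, and their recovery was 91% and 12% for aged CR against young and 76% and 7% for aged CR against aged AL, with 5.5% and 6.74% of calls unchanged genes. Every gene was simulated with the median spread between rats. The fitted coefficient of variation between rats was 0.778 for Myh7, 0.612 for Myh6, 0.411 for ENSRNOG00000046276 and 0.363 for the long row. The common value over all rows was 0.318. Recovery at the members' own spread was not simulated, so these shares do not describe the members. Replicates are separate rats per the labels, although 2 CR columns carry the same sample number, and depth was 17335401 to 27432767 counts per library.

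The members and gene lists were chosen with earlier results of these data known. The genes to be named were the members and, for Myh7 and Myh4, the 2 rows most alike in pattern. The plan was written for 8 members, but the rule found 4, and Myh4 could not be identified, so the long chromosome 10 row took its place. Lists of fibre type and cell type markers, by which the tissue was to be checked, are not analysed here because no table pairs their symbols with the identifiers. Sequences are from RefSeq (GRCr8), where 8 of the 8 myosin names were matched.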

Additional observations from a re-analysis of the deposited data

Results flagged for a closer look

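Of 12 groups of 6 values, 4 members in 3 groups each, 3 held a library far from the others by Dixon's ratio, the gap to the nearest library over the whole range above its 95% critical value for 6 samples. Chance gives about 1 in 20, or 0.6 of 12, for independent values with a normal spread. That was not tested for these values, and the 4 members share their libraries, so 3 of 12 cannot be judged against 0.6. The ratio was 0.912 for Myh7 in young rats, where rat 4 had 10490 CPM and the next rat 3084. It was 0.881 for Myh7 in aged AL rats, where rat 7 had 19360 CPM and the next rat 3100. It was also 0.881 for Myh6 in aged AL rats, where rat 7 had 15.26 CPM and the next rat 2.713. The Myh7 and Myh6 values of rat 7 come from the same library and are not independent of each other. These ratios were taken on CPM and depend on the scale. On log2 CPM, a scale added after the data were seen, the ratio was 0.823 for Myh7 in young rats and 0.637 for Myh6 in aged AL rats, both past the critical value, and 0.596 for Myh7 in aged AL rats, which is not. On that scale Myh6 in CR rats also passed, at 0.648 for rat 14, the lowest, so that 3 of 12 groups passed on either scale. The mitochondrial share of rat 4 was 6.12%, the highest of the young rats, where the other 5 held 4.24% to 5.96%, and that of rat 7 was 4.75%, where the other 5 aged AL rats held 3.1% to 6.75%.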

How the results depend on the processing

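For each of the 12 member results 31 other settings were tried, and 0 of the 366 values with an adjusted p passed. The rest of the 372 are DESeq2 fits that gave none, for Myh6 and, between aged and young AL rats on 12 libraries, Myh7. Over the same settings the number of all rows that passed varied widely. For aged AL against young it ran from 258 of 14086 to 988 of 16461. It ran from 46 of 15440 to 955 of 16810 for aged CR against young, and from 4 of 15440 to 477 of 14617 for aged CR against aged AL. The log2 fold change of ENSRNOG00000046276 kept its direction in 31 of 31 settings for aged AL against young (-0.73 to -0.47, adjusted p from 0.0548 to 0.459) and for aged CR against young (-1.23 to -0.45, adjusted p from 0.057 to 0.526). Leaving out each library in turn turned the sign in these results. For aged AL against young, the range was -1.14 to 0.79 for Myh7 and -0.44 to 0.85 for Myh6. For aged CR against young, it was -0.67 to 0.19 for Myh7, -0.0854 to 0.2407 for Myh6 and -0.13 to 0.15 for the long chromosome 10 row, ENSRNOG00000049695. For aged CR against aged AL, it was -0.91 to 0.78 for Myh7 and -0.81 to 0.44 for Myh6.

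Without rats 4 and 7, a setting added after the data were seen, Myh7 had log2 fold changes of -0.59 (aged AL against young), 0.19 (aged CR against young) and 0.78 (aged CR against aged AL), and Myh6 had -0.20, 0.24 and 0.44. Without rat 14, library 8826 and library 8827, also added later, ENSRNOG00000046276 had 0.16 for aged CR against aged AL and Myh6 had 0.25 for aged CR against young. In aged CR against young the estimates of 2 rows lay so near 0 that the sign turned with the scaling, the tool, the libraries fitted or the filter: the long row had 0.048 with upper-quartile scaling and 0.0058 with library totals only, and Myh6 had 0.0026 and 0.0066 with DESeq2 on all and on 12 libraries, 0.0096 with edgeR on 12 libraries, 0.0017 with RLE size factors, 0.0505 with upper-quartile scaling, 0.0171 with no filter and 0.0043 with at least 10 counts in every library. Scaling by library totals only moved the median of all rows to 0.18 for aged AL against young and to -0.19 for aged CR against aged AL.

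Between rats, r without rat 8 and library 8828 was -0.151 for ENSRNOG00000046276 and the long row, -0.778 for the long row and Myh6 and -0.731 for the long row and Myh7. Without rats 4 and 7 it was 0.081 for the long row and Myh7 and 0.491 for Myh6 and Myh7. As shares of counts not divided by length, ENSRNOG00000046276 made up 0.267% in young, 0.224% in aged AL and 0.152% in CR rats, and Myh6 0.00451%, 0.00932% and 0.00422%. Myh7 fell to 6.71%, 10.1% and 4.82% in young, aged AL and CR rats. The shifts in the shares follow from leaving out the division by length, and the cause of the others was not tested. No paired analysis was possible because the groups share no rat numbers. Calls over all rows, to which the members were compared, varied with each library left out in turn, where 14747 to 14897 rows were tested. They ranged from 288 to 678 (aged AL against young), 185 to 578 (aged CR against young) and 69 to 385 (aged CR against aged AL). The lowest were without rat 9, library 8826 and library 8826, and the highest without library 8828, rat 8 and rat 8. Depth limits Myh6 most, with 20 to 300 counts per library.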
